A study of Mus musculus with 47 samples.

Results

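The response of B cell lymphoma cells to the DNA-damaging drug Adriamycin (ADR, doxorubicin) was compared between lymphomas labelled Suv39h1 WT and lymphomas labelled Suv39h1-. For each lymphoma the change was the log2 level on the ADR array minus the log2 level on the untreated (native) array of the same lymphoma number. The response difference of a gene was the mean change of the 14 WT lymphomas minus the mean change of the 5 Suv39h1- lymphomas. These 19 lymphomas gave 38 of the 47 arrays in the series. The arrays of cultures with a Suv39h1ER construct entered only 1 test, an alternative fit of all 47 arrays given in the closing section. They also counted in the choice of a probe set for each gene and are described without a test at the end. A positive response difference means that ADR raised the gene more, or lowered it less, in WT cells.

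All lymphomas arose in Emu-myc mice, in which a Myc transgene is expressed in the B cell lineage, and came from enlarged lymph nodes. All were transduced with a MSCVpuro retrovirus carrying Bcl2. After 48 h of puromycin selection the cells were kept on a feeder layer of NIH 3T3 mouse fibroblasts irradiated with 20 Gy, whose RNA the same mouse probe sets can read. The 4 groups were WT native and WT ADR (14 arrays each) and Suv39h1- native and Suv39h1- ADR (5 arrays each). ADR was given in culture at 0.05 µg/ml for 5 days. The labels call WT ADR cells senescent and the cells of the other 3 groups non-senescent. Age, sex and strain of the mice are not given in the sources used here.

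Suv39h1 is a histone methyltransferase that trimethylates lysine 9 of histone H3, a mark of silenced chromatin. In cells that enter senescence, a lasting arrest after oncogenic signalling or DNA damage, this mark is known to cover genes that drive the cell cycle. Senescent cells are also known for secreting cytokines, chemokines and proteases and for enlarged lysosomes.

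One array stood apart before any comparison: its median log2 level was 4.07 (Suv39h1- lymphoma 1032 under ADR), beside 4.32 to 4.43 on the others. The array median changed under ADR by 0.014 ± 0.023 (SD, n = 14) in WT and by -0.081 ± 0.114 (SD, n = 5) in Suv39h1- lymphomas (exact permutation test over 11628 splits, two-sided, p = 0.000602, adjusted p = 0.00241 over 4 measures). Both 3′ minus 5′ control differences and the 18S control gave unadjusted p between 0.712 and 0.862 in the same exact permutation test. WT lymphomas 2949, 5043, 5766 and 6054 resembled each other more than most WT pairs. This was read from deviations of native arrays from their genotype's native mean, over the 1000 genes most variable on native arrays. Deviations of these WT lymphomas correlated at 0.15 to 0.68, where those of other WT pairs lay between -0.60 and 0.34 (median -0.13). Those of Suv39h1- lymphomas 7890 and 9250 correlated at 0.069, where other Suv39h1- pairs lay between -0.55 and -0.039 (median -0.20). Deviations from a group's own mean lean to negative correlations, more so in a small group. Suv39h1 itself was not analysed here, and the genotypes rest on the labels. The B cell receptor genes Cd79a and Cd79b, which define B cells, had mean levels of 9.05 and 10.83 over the arrays. In such bulk RNA, fewer cells of a type and less RNA per cell cannot be told apart.

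Markers of other cell types also moved with genotype. The 38 measured fibroblast markers had a mean change of 1.77 ± 1.23 (SD, n = 14) in WT lymphomas, from 0.019 in lymphoma 1467 to 4.02 in lymphoma 403, and of 0.23 ± 0.33 (SD, n = 5) in Suv39h1- lymphomas. A total of 4 WT lymphomas lay inside the Suv39h1- range, which reached 0.71. The mean level of these markers ran from 4.24 to 5.26 on native WT arrays and from 4.92 to 8.96 on WT ADR arrays, beside 4.43 to 5.60 (native) and 4.57 to 6.31 (ADR) on the Suv39h1- arrays. The 23 measured macrophage and monocyte markers changed by 1.28 ± 0.62 (SD, n = 14) in WT and by 0.23 ± 0.32 (SD, n = 5) in Suv39h1- lymphomas. Their mean level ran from 4.70 to 7.32 on native and 5.88 to 7.89 on ADR arrays of WT lymphomas, and from 4.33 to 7.47 and 4.34 to 7.62 on those of Suv39h1- lymphomas. The part of these cells in the results below was not tested beyond the covariate fits given beside them.

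The first question was which genes responded differently in the 2 genotypes. A total of 40 of 18194 genes passed the test at an adjusted p under 0.05 (limma on paired arrays, Benjamini-Hochberg). The response difference was positive for 23 genes (0.126% of all genes) and negative for 17 (0.0934%). Secreted and stress-induced genes such as Lcn2, Cxcl2, Tnf, Atf3 and Klf6 were among the former, and genes of mitosis and DNA synthesis such as Plk1, Bub1b, Haus1, Pold2 and Rnaseh2a among the latter. The size of the difference ran from 0.57 to 3.08 log2 units with a median of 0.92. With arrays centred on their medians, which moved the median difference of all genes from 0.053 to -0.127, the calls were 12 higher and 75 lower. In the same fit as the 40 calls, 5481 genes (30.1%) changed under ADR in WT lymphomas. No gene passed in the Suv39h1- lymphomas, where 1918 genes had an unadjusted p under 0.05 and the smallest adjusted p was 0.0609 (limma). With 5 pairs in place of 14 the Suv39h1- changes were less precise, with an SE for Lcn2 of 0.45 beside 0.27 in WT. The 2 counts therefore do not compare the sizes of the responses.

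All 40 calls stood near the threshold, with adjusted p between 0.0391 and 0.0496 (limma, Benjamini-Hochberg). Just outside it were Adam8 with a difference of 1.87, Ppp3r1 with 0.55 and Znfx1 with 1.24, all at an adjusted p of 0.0503 (limma), and just inside were Plcd1 with 0.91, Rad1 with -0.99 and Prps1 with -1.004. Each of the 19 lymphomas, left out in turn, moved the count by over 1.5 times. It was 0 without WT 1570, 3594, 5560, 5766 or 7050 and without Suv39h1- 7890, 9250, 1032 or 4936, with 2723 to 3387 genes at an unadjusted p under 0.05 in these fits (limma). It was 2 without WT 2581, 3 without 6054, 8 without 5043, 13 without 3769, 15 without 9583 and 26 without 403. It was 62 without Suv39h1- 5783, 103 without WT 1467, 104 without WT 2949 and 132 without WT 9584. The count was also 0 with a spread estimated per genotype, with the mean of a gene's probe sets, and with alike lymphomas counted once (2802 to 3319 genes at an unadjusted p under 0.05, limma). In all 19 fits that left 1 lymphoma out, the 40 differences kept their sign and an unadjusted p under 0.05 (limma). Their median size stayed between 0.94 and 1.06 times that with all lymphomas. The 40 genes were selected on these same lymphomas, which favours such an outcome.

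**Figure D1:**
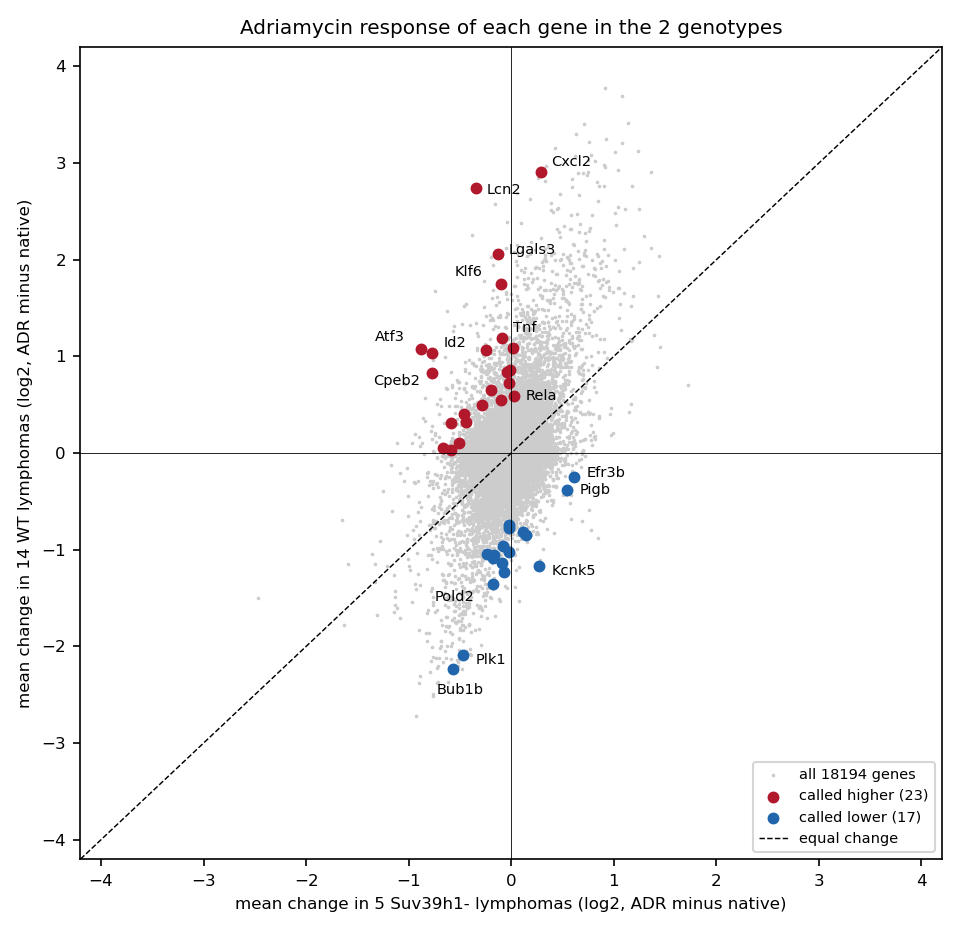
Mean change under ADR (log2, ADR minus native) in the 14 WT lymphomas (vertical axis) against the 5 Suv39h1- lymphomas (horizontal axis) for 18194 genes in grey, with 23 genes called higher in red, 17 called lower in blue and equal change as a dashed line. Lcn2 lies at 2.74 in WT and -0.34 in Suv39h1- lymphomas, and Bub1b at -2.23 and -0.57.

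The larger change was mostly on the WT side. WT lymphomas had the larger mean change for 32 of the 40 genes and Suv39h1- lymphomas for 8. The WT change passed its own test for 37 of the 40, where 30.1% of all genes did. The mean changes had opposite signs for 25 of the 40, and the paired changes of the 2 genotypes did not overlap for 16, where 39 of all genes (0.214%) had no overlap. These counts describe genes selected on the same changes.

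Mitotic genes had the largest of the called negative differences. Plk1, the kinase that drives entry into and progress through mitosis, had native WT levels from 8.11 to 9.43 (median 9.01) and WT ADR levels from 5.45 to 8.03 (median 6.81). In Suv39h1- lymphomas 5783, 7890, 9250, 1032 and 4936 the native levels were 8.37, 8.91, 9.02, 8.62 and 7.93, and the ADR levels were 7.39, 8.22, 8.35, 7.98 and 8.55. Plk1 was lower under ADR in all 14 WT lymphomas, while among the Suv39h1- lymphomas it was lower by less than 1 unit in 4 and higher in 4936. The mean change was -2.09 ± 0.68 (SD, n = 14) in WT and -0.47 ± 0.63 (SD, n = 5) in Suv39h1- lymphomas, a response difference of -1.62 (SE 0.33, 95% interval -2.31 to -0.94, adjusted p = 0.0490, limma).

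Bub1b, the spindle checkpoint kinase BubR1, followed the same order. Its native level had a median of 9.60 in WT lymphomas (9.21 to 10.25) and its ADR level a median of 7.39 (6.30 to 8.85). The Suv39h1- changes in 5783, 7890, 9250, 1032 and 4936 were -1.42, -0.55, -0.76, -0.53 and 0.44, beside WT changes from -3.27 to -0.72. The ranges overlapped, and the response difference was -1.66 (SE 0.34, adjusted p = 0.0490, limma). Its 3 probe sets gave differences from -1.80 to -0.26.

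Further called genes of the division cycle had smaller differences. Haus1, a subunit of the augmin complex that seeds spindle microtubules, changed by -1.65 to -0.54 in WT and by -0.22, -0.48, -0.07, -0.26 and 0.58 in Suv39h1- lymphomas, so that the groups did not overlap. Its response difference was -1.05 (SE 0.18, adjusted p = 0.0391, limma). Pold2, a subunit of DNA polymerase delta, fell by 1.36 ± 0.45 (SD, n = 14) in WT and stood at -0.18 ± 0.39 (SD, n = 5) in Suv39h1- lymphomas, a difference of -1.18 (SE 0.22). Rad1, part of the clamp that signals damaged DNA, had a difference of -0.99 (SE 0.21). Rnaseh2a, the catalytic subunit of the enzyme that removes ribonucleotides from DNA, had a difference of -0.88 (SE 0.18). Nsmce4a, a subunit of the Smc5-Smc6 complex, had one of -0.81 (SE 0.15), but its second probe set gave 0.09.

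Of the 52 measured mitosis genes all but 2 had a negative difference. Plk1 and Bub1b were called, and 48 of the 52 had a lower response in WT at an unadjusted p under 0.05, where 7.14% of all genes did. The median difference of the list was -1.30, with a median WT change of -1.79 and a median Suv39h1- change of -0.55, and all genes had a median difference of 0.053. Aurkb, a kinase of chromosome segregation, had a difference of -1.76 (SE 0.41, adjusted p = 0.0724, limma), Ccnb2, a mitotic cyclin, one of -1.73 (SE 0.51), and Mki67, the proliferation marker, one of -1.42 (SE 0.47). Of the 39 replication genes none was called and 31 had an unadjusted p under 0.05 on the lower side, with a median difference of -0.95. Pola1, the catalytic subunit of the primase-polymerase, stood at -1.69 (SE 0.41), Mcm6, part of the replicative helicase, at -1.001 (SE 0.24), and thymidine kinase Tk1 at -1.51 (SE 0.38). The DNA repair list had 18 of 25 members on the lower side (median -0.70, Fanca -0.78) and the list of E2F and cell cycle entry genes 12 of 22 (median -0.71, Mybl2 -1.29). The DNA repair count was 12 with the fibroblast covariate, 2 with the macrophage covariate, 1 with both and 11 without Suv39h1- 4936. The E2F count was 5, 4, 1 and 8 in the same fits.

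Within the Suv39h1- lymphomas the proliferation lists did not move alike. The median change of the mitosis list was -1.31, -0.68, -0.70 and -0.90 in 5783, 7890, 9250 and 1032, and 0.80 in 4936. That of the replication list was -0.63, -0.68, -0.44 and -0.45, and 0.81 in 4936. Lymphoma 4936 was thus the single Suv39h1- lymphoma in which both lists were higher under ADR. On its native array Tk1 stood at 6.73 and Aurkb at 7.96, beside 8.57 to 9.47 and 9.23 to 9.60 in the other Suv39h1- lymphomas. Its native Mcm6, at 10.66, lay close to 10.69 in 1032. Under ADR its Tk1 and Aurkb, at 8.17 and 8.82, lay inside the range of the others (7.79 to 8.56 and 7.52 to 8.83). Among WT lymphomas 9584 changed least, with -0.13 for mitosis and -0.036 for replication, and 2949 changed most for mitosis, with -3.79. Without 4936, 25 of 52 mitosis genes and 18 of 39 replication genes had an unadjusted p under 0.05 on the lower side, with median differences of -0.95 and -0.63. With the macrophage covariate these counts were 17 and 8 (medians -1.13 and -0.61), with the fibroblast covariate 46 and 21 (medians -1.52 and -0.76), and with both 24 and 2 (medians -1.42 and -0.53).

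**Figure D2:**
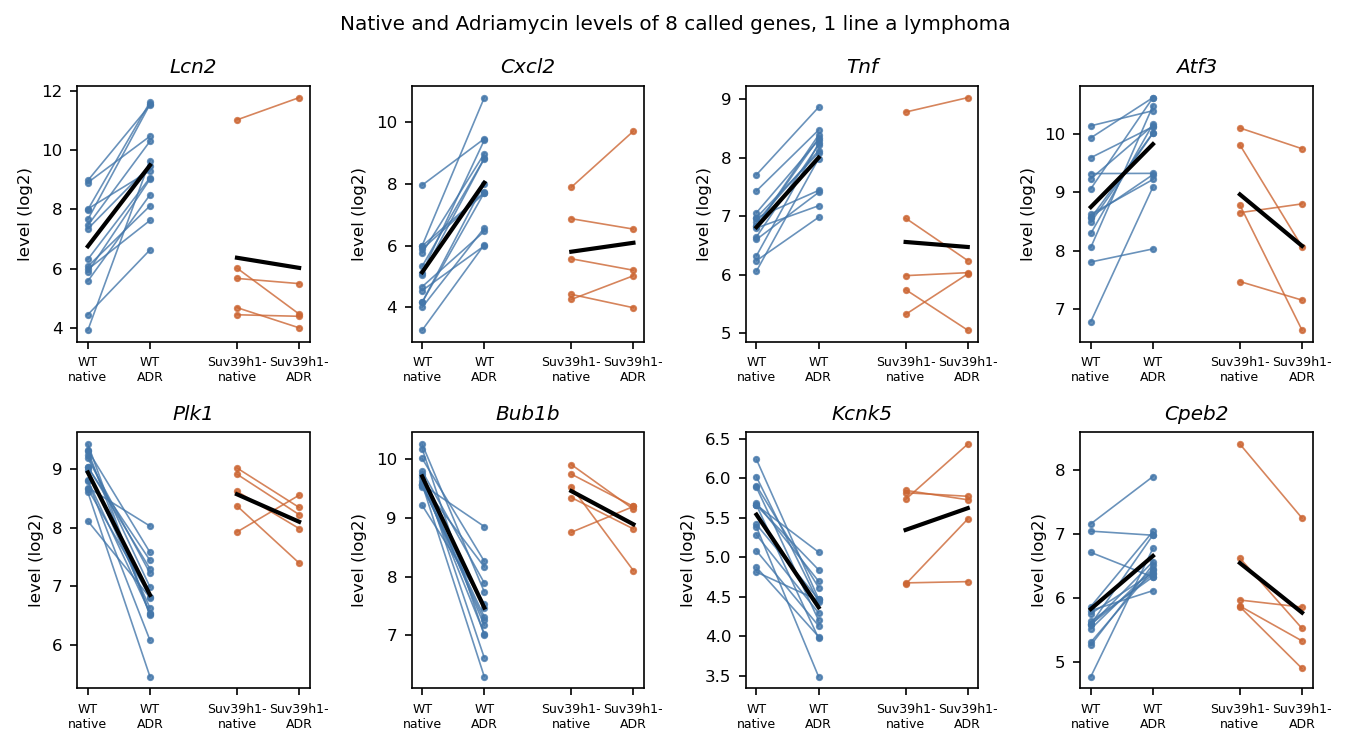
Log2 levels of 8 called genes on native and ADR arrays, with 1 line for each of 14 WT (blue) and 5 Suv39h1- (orange) lymphomas and the group mean in black. Plk1 and Bub1b were lower under ADR in all 14 WT lymphomas and Lcn2 was higher in all 14, while Plk1, Bub1b and Lcn2 each ran both ways among the Suv39h1- lymphomas.

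The promoters of Plk1, Bub1b and Cxcl2 are shown because these genes stand for the cell cycle and the inflammatory side of the difference. They are RefSeq promoters on GRCm38.p6, from 250 bases before to 50 after the annotated start, read 5′ to 3′ on the gene's strand, at chr7:122159185-122159484 (plus strand), chr2:118597961-118598260 (plus strand) and chr5:90903649-90903948 (plus strand). Capitals mark matches on either strand to CCAAT (the CCAAT box), TTTGAA (the cell cycle homology region, CHR), the interferon-stimulated response element (ISRE, GAAA and GAAA with 2 bases between) or a kappaB site (GGGA and TTCC with 2 bases between).
Plk1: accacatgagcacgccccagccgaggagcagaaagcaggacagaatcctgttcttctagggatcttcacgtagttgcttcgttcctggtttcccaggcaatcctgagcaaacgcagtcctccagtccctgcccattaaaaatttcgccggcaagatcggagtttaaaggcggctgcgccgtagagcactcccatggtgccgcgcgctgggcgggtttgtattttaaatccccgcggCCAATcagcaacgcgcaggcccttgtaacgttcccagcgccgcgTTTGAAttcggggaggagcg
Bub1b: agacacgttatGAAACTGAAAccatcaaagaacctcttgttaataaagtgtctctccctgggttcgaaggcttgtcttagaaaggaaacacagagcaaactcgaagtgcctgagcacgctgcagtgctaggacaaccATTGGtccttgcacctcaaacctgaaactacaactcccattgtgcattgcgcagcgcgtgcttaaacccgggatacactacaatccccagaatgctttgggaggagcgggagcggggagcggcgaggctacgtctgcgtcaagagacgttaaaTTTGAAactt
Cxcl2: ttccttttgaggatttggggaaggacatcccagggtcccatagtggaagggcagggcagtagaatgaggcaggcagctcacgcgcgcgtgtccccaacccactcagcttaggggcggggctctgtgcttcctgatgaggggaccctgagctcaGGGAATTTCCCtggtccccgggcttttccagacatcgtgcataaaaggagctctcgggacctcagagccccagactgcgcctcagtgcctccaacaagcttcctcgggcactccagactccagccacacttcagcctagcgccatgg

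Both mitotic promoters held a CCAAT box and a CHR. Counted from the annotated start, the matches began at -14 and 31 in Plk1 and at -113 and 41 in Bub1b. The Cxcl2 promoter held 2 kappaB matches that overlap and together make the run of 11 capitals. Of the genes tested, 14453 had a promoter in the table, and 42.0% of them held CCAAT and 15.7% TTTGAA. Among the 17 genes called lower, 16 had a promoter, of which 12 held CCAAT and 6 (37.5%) TTTGAA. Among the 23 called higher, 21 had a promoter, of which 9 (42.9%) and 3 (14.3%) did. Of 43 mitosis genes with a promoter, 31 (72.1%) held CCAAT and 32 (74.4%) TTTGAA, and of 32 replication genes 19 (59.4%) and 4 (12.5%). The kappaB letters were in 1.7% of all promoters, in 1 of 21 of the genes called higher, in 6 of 40 secretory genes and in 3 of 16 genes of the NF-kB list (18.8%). These matches describe letters in a window and not bound sites.

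The called genes with positive differences included Lcn2 and 2 of the measured secretory factors, Cxcl2 and Tnf. Lcn2, lipocalin 2, which binds bacterial siderophores and is also a neutrophil granule protein, had the largest difference of the called genes. Its native WT levels ran from 3.92 to 8.98 (median 6.83) and its WT ADR levels from 6.63 to 11.63 (median 9.40). In Suv39h1- lymphomas 5783, 7890, 9250, 1032 and 4936 it stood at 6.02, 5.67, 4.68, 11.03 and 4.44 native and at 4.46, 5.49, 4.00, 11.79 and 4.39 under ADR. It was higher under ADR in all 14 WT lymphomas, by 1.29 to 5.74, while of the Suv39h1- lymphomas only 1032, already high when native, had more under ADR. The changes did not overlap, and the response difference was 3.08 (SE 0.52, 95% interval 1.996 to 4.17, adjusted p = 0.0391, limma). Of 12 measured neutrophil markers Lcn2 was the only one with an unadjusted p under 0.05, and the median difference of that list was 0.22.

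Cxcl2, a chemokine that attracts neutrophils, changed by 1.45 to 4.80 in WT lymphomas and by -0.34, 0.77, -0.43, 1.82 and -0.37 in Suv39h1- lymphomas 5783, 7890, 9250, 1032 and 4936. Lymphoma 1032 reached into the WT range. The response difference was 2.61 (SE 0.52, adjusted p = 0.0490, limma). Tnf, tumour necrosis factor, changed by 0.38 to 1.92 in WT and by -0.73, 0.05, 0.69, 0.25 and -0.69 in Suv39h1- lymphomas, with a difference of 1.27 (SE 0.26, adjusted p = 0.0490, limma). Lgals3, galectin 3, a sugar-binding protein of macrophages and many other cells, had a difference of 2.19 (SE 0.38, adjusted p = 0.0391, limma) from a WT mean change of 2.06 and a Suv39h1- mean change of -0.13.

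Of the 53 measured secretory factors, Cxcl2 and Tnf were called and 22 had a higher response in WT at an unadjusted p under 0.05, where 11.2% of all genes did. None was on the lower side at that p. The median difference was 0.81, from a WT median of 1.03 and a Suv39h1- median of 0.15. Ccl2, a monocyte-attracting chemokine, had a difference of 2.16 (SE 0.69), the interleukins Il6 and Il18 had differences of 1.77 (SE 0.56) and 1.81 (SE 0.46), and none of these 3 passed the adjusted threshold. With the fibroblast covariate 9 members were higher at an unadjusted p under 0.05 and the median was 0.12. With the macrophage covariate 8 were and the median was 0.57, and with both 5 were and the median was 0.08.

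Stress-induced transcription factors formed the next group. Atf3, a factor induced by DNA damage, amino acid shortage and other stresses, changed by 0.003 to 2.42 in WT lymphomas and by -1.74, 0.15, -2.14, -0.36 and -0.32 in Suv39h1- lymphomas 5783, 7890, 9250, 1032 and 4936. It was higher under ADR in all 14 WT lymphomas and lower in 4 of 5 Suv39h1- lymphomas, and the response difference was 1.96 (SE 0.40, adjusted p = 0.0490, limma). Klf6, a zinc finger factor of the immediate early response, had a difference of 1.85 (SE 0.37, adjusted p = 0.0490, limma), and all 5 of its probe sets had one of at least 1.02. Id2, which blocks E proteins needed for B cell development, had mean changes of 1.04 in WT and -0.78 in Suv39h1- lymphomas and a difference of 1.81 (SE 0.36). Cpeb2, a regulator of messenger RNA translation, changed by -1.16 to -0.11 in Suv39h1- lymphomas and was higher under ADR in 12 of 14 WT lymphomas, with a difference of 1.60 (SE 0.28, adjusted p = 0.0391, limma).

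Of 19 measured AP-1 and immediate early genes, Klf6 and Atf3 were called. A higher response in WT at an unadjusted p under 0.05 was seen in 12, where 11.2% of all genes had one. The median difference was 1.67, the largest of all lists, with a WT median of 1.08 and a Suv39h1- median of -0.23. Fosl2, an AP-1 subunit, stood at 2.12 (SE 0.54, adjusted p = 0.0864, limma). With the fibroblast covariate 3 members had an unadjusted p under 0.05 and the median was 0.35. With the macrophage covariate 5 had, with both none had and the median was -0.18, and without Suv39h1- 9250 7 had. The list median in single WT lymphomas ran from -0.79 in 1467 to 2.39 in 5560. Lymphomas 1467, 2949 and 5043 had the lowest AP-1 medians (-0.79, -0.18 and 0.26), and their fibroblast list medians were 0.015, 0.47 and 0.34. Lymphomas 5560, 2581 and 3594 had the highest (2.39, 2.28 and 1.87), and their fibroblast list medians were 4.53, 2.32 and 2.65. Lymphoma 403, with the highest fibroblast list median at 4.77, had an AP-1 median of 1.21. The relation of the 2 lists across lymphomas was not tested. Atf3 itself had a difference of 1.96 with the fibroblast and 0.91 with the macrophage covariate.

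**Figure D3:**
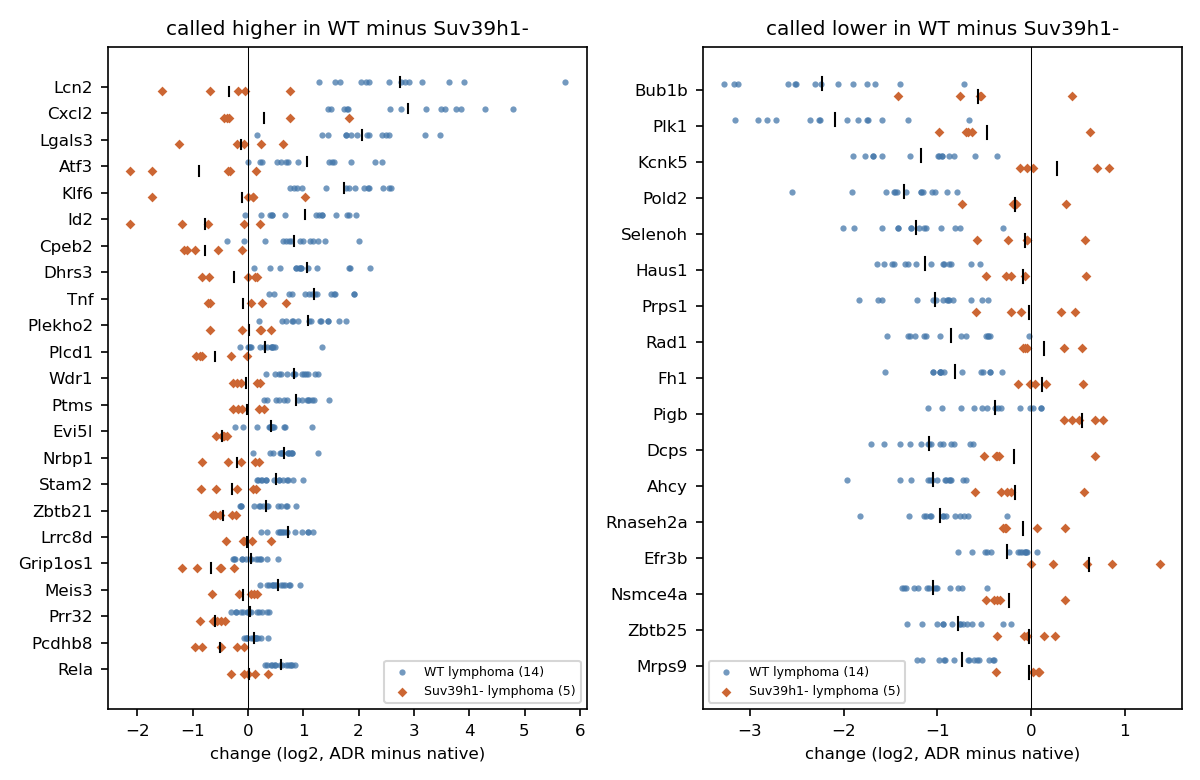
Change under ADR (log2, ADR minus native) of each called gene in 14 WT (blue points) and 5 Suv39h1- lymphomas (orange diamonds), with black ticks at the group means, for the 23 genes called higher and the 17 called lower. Lcn2 shows no overlap, while in Cxcl2 the Suv39h1- lymphoma 1032, at 1.82, lies among the WT points.

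Signalling and lysosomal genes had smaller differences. Rela, the p65 subunit of NF-kB, was called with a difference of 0.57 (SE 0.12, adjusted p = 0.0490, limma). It was higher under ADR in all WT lymphomas, by 0.32 to 0.85, and changed by 0.37, 0.13, -0.004, -0.07 and -0.31 in Suv39h1- lymphomas 5783, 7890, 9250, 1032 and 4936. Of 20 NF-kB genes 8 had a higher response at an unadjusted p under 0.05 (median difference 0.48), where 11.2% of all genes did. Among the 8 was the inhibitor Nfkbie with 0.87 (SE 0.25). That count was 4 with centred arrays or the fibroblast covariate and 3 with the macrophage covariate or both. Of 36 lysosomal genes none was called and 16 were higher at that p (median 0.42). The lysosomal membrane protein Lamp1 was higher under ADR in all 19 lymphomas, by a mean of 1.10 in WT and 0.46 in Suv39h1- lymphomas (difference 0.64, SE 0.16), and the protease Ctsd had a difference of 1.22 (SE 0.34). Sqstm1, the autophagy receptor p62, had a difference of 1.10 (SE 0.24, adjusted p = 0.0523, limma), and 5 of 25 autophagy genes were higher at an unadjusted p under 0.05. The autophagy count was 1 with the fibroblast covariate, 3 with both, 2 with centred arrays and 8 without WT 2949. The lysosome count was 4 with the fibroblast covariate (median 0.24), 1 with the macrophage covariate (median 0.20) and 0 with both (median -0.11).

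The interferon-stimulated list had no called gene. A total of 12 of 41 members had a higher response in WT at an unadjusted p under 0.05, where 11.2% of all genes did. The median difference was 0.53. The count was 5 with centred arrays (median 0.35), 7 with quantile normalisation, 4 without Suv39h1- 7890 and 21 without WT 403. Ifit1, which binds viral RNA, stood at 2.17 (SE 0.64) and Oas2, which senses double-stranded RNA, at 1.19 (SE 0.37). With the fibroblast covariate 12 members were higher at that p and the list median was 0.60. With the macrophage covariate no member was higher at that p, 2 were lower, and the list median was -0.10. With both covariates none was higher and 1 was lower. In the promoters of this list, 18 of 31 (58.1%) held the ISRE letters, where 3.63% of all promoters did. In the lysosome list 8 of 30 (26.7%) held TCACGTG, an E-box read by the lysosomal regulator Tfeb, where 5.8% of all did. Of the 13 genes of the DNA sensing list Rnaseh2a, given above, was called. At an unadjusted p under 0.05, 2 of the 13 were higher and 4 lower, where 11.2% and 7.14% of all genes were. The lower count was 2 with either covariate or both, without Suv39h1- 4936, 5783 or 9250, and without WT 3769 or 5560.

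**Figure D4:**
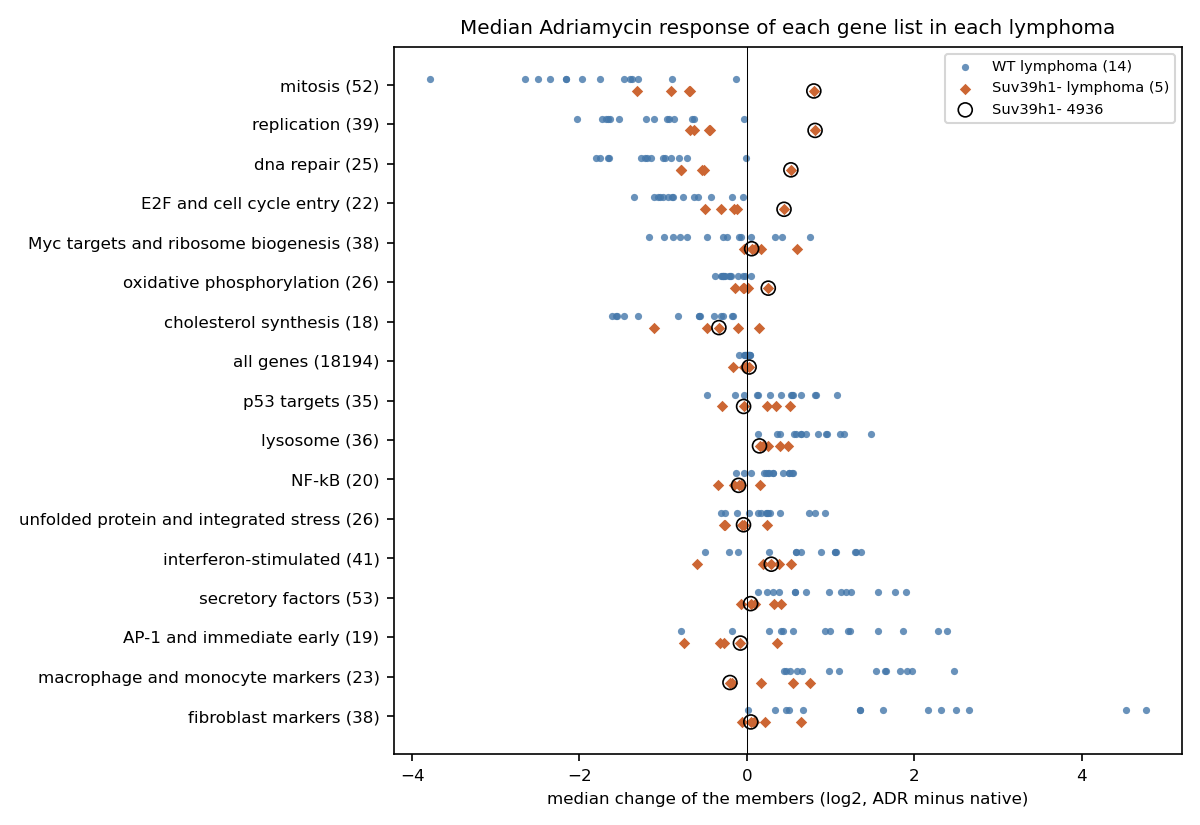
Median change under ADR (log2, ADR minus native) of the measured members of each gene list, with the number of members in brackets, in 14 WT (blue) and 5 Suv39h1- (orange) lymphomas. Circles mark Suv39h1- 4936, at 0.80 for mitosis, and the fibroblast list reaches 4.77 in WT lymphoma 403.

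Several metabolic and growth lists had negative medians. Of 26 oxidative phosphorylation genes 12 had a lower response in WT at an unadjusted p under 0.05 (median -0.24, Uqcrfs1 -0.48), where 7.14% of all genes did. That count was 2 with the fibroblast covariate, 7 with the macrophage covariate, 3 with both, 4 without Suv39h1- 4936 and 21 with centred arrays. Of 38 Myc targets and ribosome biogenesis genes 10 were lower at that p (median -0.41). With the fibroblast covariate or both none was (medians 0.12), and with the macrophage covariate 3 were. The count was 4 without Suv39h1- 1032, 6 without Suv39h1- 5783, 16 without WT 1467, 17 without WT 2949 and 16 with alike lymphomas counted once. Myc itself had mean changes of -0.78 in WT and 0.35 in Suv39h1- lymphomas, a difference of -1.14 (SE 0.34, adjusted p = 0.116, limma). Whether its probe set reads the transgene was not tested. Of 36 genes of H3K9 methylation and heterochromatin 12 were lower and 2 higher at that p, where 7.14% and 11.2% of all genes were. The median of this list was -0.21, and 11 members had a positive difference. Cbx5, the HP1 alpha protein that binds the H3K9 mark, was among the lower with -0.78 (SE 0.25). The lower count was 4 with the fibroblast covariate, 1 with the macrophage covariate or both, and 4 without Suv39h1- 4936. Single called genes of metabolism were Fh1, the fumarase of the citric acid cycle, with -0.93 (SE 0.17), Prps1, which makes the sugar phosphate for nucleotide synthesis, with -1.004 (SE 0.21), Ahcy, which breaks down S-adenosylhomocysteine, with -0.88 (SE 0.18), and the selenoprotein Selenoh with -1.16 (SE 0.22). Kcnk5, a potassium channel, changed by -1.89 to -0.36 in WT lymphomas. It changed by -0.04, -0.12, 0.70, 0.83 and 0.02 in Suv39h1- lymphomas 5783, 7890, 9250, 1032 and 4936. The changes did not overlap, and the difference was -1.45 (SE 0.23, adjusted p = 0.0391, limma), but its second probe set gave -0.22.

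The arrest and nuclear lamina genes varied. Cdkn1a, the p21 inhibitor of cyclin-dependent kinases and a p53 target, was higher under ADR in 13 of 14 WT and in 5 of 5 Suv39h1- lymphomas, and its difference of 0.46 (SE 0.35, 95% interval -0.27 to 1.20) did not pass. Of 35 p53 targets 3 were higher and 1 lower at an unadjusted p under 0.05, close to the share of all genes, and the median difference was 0.13. Mdm2, which degrades p53, stood at 1.13 (SE 0.37, adjusted p = 0.144, limma). Lmnb1, the lamin that is lost in senescence, stood at -1.33 (SE 0.41, adjusted p = 0.124, limma), and the chromatin protein Hmgb2 at -1.38 (SE 0.38). Of 27 B cell identity genes 2 were lower and none higher at that p, where 7.14% and 11.2% of all genes were. Their median difference was -0.32, beside 0.053 for all genes, and 7 of the 27 had a positive difference. Of 14 genes each of the class I and class II antigen presentation lists 2 and 1 were lower and none higher at that p (medians -0.074 and -0.065). Of 18 genes of senescence arrest and the nuclear lamina 2 were higher and 7 lower at that p (median 0.034), where 11.2% and 7.14% of all genes were. The lower count was 3 with the fibroblast covariate, 4 with the macrophage covariate, 2 with both and 4 without Suv39h1- 4936. Among markers of T cells, NK cells, erythroid cells and endothelium no more than 1 gene per list and direction had an unadjusted p under 0.05.

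For 8 called genes the Suv39h1- lymphomas had the larger mean change. Pigb, an enzyme of GPI anchor synthesis, was higher under ADR in all 5 Suv39h1- lymphomas (0.35, 0.43, 0.68, 0.77 and 0.51) and had changes from -1.09 to 0.11 in WT lymphomas, with a difference of -0.93 (SE 0.18). The other 7 were Efr3b among the lower and Prr32, Pcdhb8, Grip1os1, Plcd1, Evi5l and Zbtb21 among the higher genes. Evi5l changed by -0.57 to -0.38 and Zbtb21 by -0.62 to -0.22 in the Suv39h1- lymphomas, both outside the WT range. None of the 8 changes passed the test within the Suv39h1- lymphomas. Prr32, Pcdhb8, Grip1os1 and Efr3b had mean levels from 3.13 to 4.12, below all but 1 array median. Pcdhb8 belongs to a cluster of related protocadherins and Grip1os1 overlaps Grip1 on the other strand. Whether their probe sets also read neighbouring genes was not tested.

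The other called genes belonged to varied functions. Wdr1, a cofactor in the disassembly of actin filaments, had a difference of 0.88 (SE 0.14, adjusted p = 0.0391, limma), and its 3 probe sets lay between 0.68 and 0.88. Dhrs3, a reductase of retinal, had a difference of 1.31 (SE 0.27), Lrrc8d, a subunit of volume-regulated anion channels, one of 0.74 (SE 0.15), and Stam2, which sorts proteins at endosomes, one of 0.78 (SE 0.16). Ptms stood at 0.88 (SE 0.17), Nrbp1 at 0.85 (SE 0.16) and the homeobox gene Meis3 at 0.64 (SE 0.13). On the lower side were Dcps at -0.91 (SE 0.19), the zinc finger gene Zbtb25 at -0.75 (SE 0.15) and Mrps9 at -0.72 (SE 0.14). Of the 40 genes 21 had 1 probe set, and 12 of the 19 with several had the same sign in all of them. The exceptions were Nsmce4a, Ptms, Zbtb25, Efr3b, Dcps, Grip1os1 and Stam2. For Evi5l, Kcnk5 and Pigb, alike in sign, the smallest differences were 0.07, -0.22 and -0.23. Only 1 probe set of each had an unadjusted p under 0.05 (limma).

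The remaining lists ran in both directions, and the fibroblast and macrophage markers had the largest medians among them. The counts below stand beside 11.2% of all genes higher and 7.14% lower at an unadjusted p under 0.05 (limma). Of 26 endoplasmic reticulum and integrated stress genes Atf3 was called and 6 were higher at an unadjusted p under 0.05 (median 0.35), the latter 2 with both covariates. Of 18 cholesterol synthesis genes 6 were lower at that p (median -0.34), among them Stard4, a cholesterol transfer protein, with -1.16 (SE 0.26). The count was 3 with the fibroblast covariate and 2 without Suv39h1- 5783. With the macrophage covariate it was 2 and the median turned to 0.10, and with both it was 0 and the median 0.16. Of 44 Wnt and stem cell genes 11 were higher and 1 lower (median 0.23), with 5 higher without Suv39h1- 1032 and 7 with the fibroblast covariate, with both or with centred arrays (median 0.05 when centred). Of 21 polycomb genes 2 were higher and 2 lower (median -0.08). Of 21 glycolysis genes 2 were lower (median -0.007), and of 14 genes of the Bcl2 family 2 were higher and 1 lower (median 0.12). Of 16 precursor B cell genes 1 was higher and 4 lower (median -0.16), the latter 1 without Suv39h1- 5783 or with the macrophage covariate, 2 with alike lymphomas counted once and 0 with the fibroblast covariate or both. Of 14 plasma cell genes 1 was higher and 1 lower (median 0.07). Of the 38 fibroblast markers 27 were higher (median 1.65), with Col1a1, a collagen chain, at 2.64 (SE 0.77, adjusted p = 0.113, limma). Of the 23 macrophage and monocyte markers 8 were higher (median 0.99), with the endotoxin receptor Cd14 at 2.10 (SE 0.48, adjusted p = 0.0641, limma).

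Native and ADR levels were also compared between the genotypes. Of all genes, 198 (1.09%) differed between genotypes on native arrays and 2293 (12.6%) on ADR arrays. Of the 40 called genes 1, Plekho2, differed on native arrays and 33 on ADR arrays. The ADR difference had the sign of the response difference for all 40, which the response difference itself, ADR minus native difference, favours. For 24 of the 40 the native difference ran the opposite way, which the subtraction also favours, and it was larger in size than the ADR difference for 2. Plekho2, a membrane-binding adaptor, was higher in WT by 0.72 native and by 1.79 under ADR. Bcl2, which the retrovirus carried into all lymphomas, was not among the 40. It was higher in WT by 2.18 native (adjusted p = 0.000103, limma) and by 1.46 under ADR (adjusted p = 0.0256, limma). Its native levels ran from 10.64 to 12.11 in WT and from 7.955 to 9.85 in Suv39h1- lymphomas. Its response difference was -0.72 (SE 0.31, adjusted p = 0.224, limma). Whether its probe set reads the retroviral Bcl2 was not tested.

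**Figure D5:**
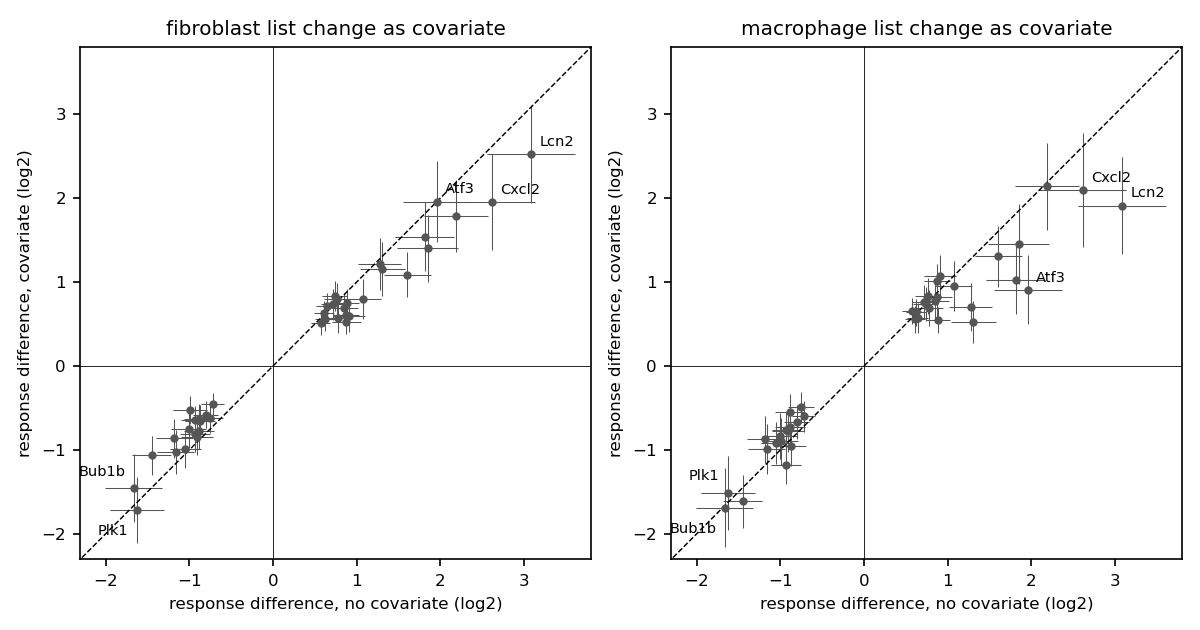
Response difference (log2, WT minus Suv39h1-) of the 40 called genes without a covariate (horizontal axis) and with the change of the fibroblast or the macrophage list as a covariate (vertical axis), with bars of 1 SE and a dashed line of equality. Lcn2 moves from 3.08 to 2.52 and 1.91, and Plk1 from -1.62 to -1.71 and -1.51.

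With the change of the fibroblast markers in the model, no call among the 40 held. All 40, selected on the same arrays, kept their sign and an unadjusted p under 0.05 (limma), at a median of 0.82 times their size. The only gene called in that fit was Arfgef2, named after its value was seen, with a difference of 1.06 (SE 0.16, adjusted p = 0.0284, limma). With the macrophage markers no gene was called, 1796 had an unadjusted p under 0.05 (limma) and the 40 genes stood at a median of 0.88 times their size. With both lists no gene was called, 1510 had an unadjusted p under 0.05 (limma), 31 of the 40 kept an unadjusted p under 0.05, and the median was 0.63 times. The difference of Plk1 was as large with the fibroblast covariate (-1.71) as without it, and that of Rad1 was 0.53 times as large.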

How the data were processed

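Each deposited value is the log2 level of 1 probe set on an Affymetrix mouse array, computed by the authors with RMA (oligo, R 3.5.0), per the submitters' processing notes. No depth applies, and the number of arrays limits the precision. Genome build and scan batches are not given in the sources used here. Of 45101 probe sets 34958 named 1 gene in GEO's platform annotation (932 several, 9211 none here), 34754 of them updated by Entrez number. A gene took the probe set brightest over the 47 arrays, giving 18194 genes with no filter on dim ones. Whether arrays of 1 group are separate mice rests on the labels, so p-values measure the spread between lymphomas as labelled.

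The fit used limma 3.58.1 (lmFit, eBayes; data.table version 1.17.8, R 4.3.3) on 38 arrays with lymphoma number as replicate block and an ADR term per genotype; the contrast was their difference, adjusted by Benjamini-Hochberg over all genes and called at 0.05. Native and ADR levels were compared in fits of 19 arrays. The pairs come from the lymphoma numbers. Deviations from the group means correlated above 0.1 in 10 of 14 WT and 5 of 5 Suv39h1- pairs. WT 5043, 3769, 9584 and 3594 stood at -0.229, -0.057, -0.009 and 0.091, and the Suv39h1- pairs at 0.46 to 0.73. The fit was tested on simulated data.

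The comparison, its genes and 34 lists (846 of 911 members measured) were chosen with earlier results of these data known. Named genes were up to 10 called genes per direction by size, from each list the 3 genes of lowest p, 12 fixed genes and called genes moving over 0.5 in opposite directions; other called genes are named to account for all 40. Lists are described by counts at an unadjusted p and medians. The kappaB, CRE (TGACGTCA) and AP-1 (TGANTCA) letters were added to the motif search after the called genes were seen; 2.92% and 7.54% of promoters held the latter letters, beside 1 and 0 of 21 genes called higher and 0 and 1 of 16 called lower.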

Additional observations from a re-analysis of the deposited data

Results flagged for a closer look

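The response of 23 genes was higher and that of 17 genes lower in WT than in Suv39h1- lymphomas by a test of the difference itself, as given above.

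Among 132 sets of 5 Suv39h1- changes (called and named genes and list medians), 11 had 1 lymphoma far from the other 4, and chance alone flags about 1 in 20 such sets. Lymphoma 4936 stood apart in 8 of them. Its change was 0.63 for Plk1 (others -0.98 to -0.64), 0.68 for Dcps, a scavenger of messenger RNA caps (others -0.50 to -0.35), 0.36 for Nsmce4a (others -0.48 to -0.33), 0.27 for Hmgb3 (others -0.62 to -0.45), 1.44 for Tk1 (others -0.92 to -0.47) and -1.25 for Nfkbie (others -0.11 to 0.06). The median of the replication list was 0.81 in 4936 (others -0.68 to -0.44) and that of the DNA repair list 0.53 (others -0.79 to -0.52). For Tk1 and Nfkbie the native level of 4936 stood apart, at 6.73 (others 8.57 to 9.47) and 8.78 (others 6.37 to 7.94). Its ADR levels of 8.17 and 7.52 lay inside the range of the others (7.79 to 8.56 and 6.42 to 7.92). For Nsmce4a its native level of 9.975 also lay inside that range (9.41 to 10.37).

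Lymphoma 5783 stood apart for Cdkn2a, which encodes the p16 and p19 arrest proteins, with a change of -3.08 (others -0.26 to 0.79), and for Mrps9, a protein of the mitochondrial ribosome, with -0.37 (others 0.02 to 0.09). Lymphoma 9250 stood apart for Vpreb3, a gene of B cell precursors, with 0.64 (others -0.89 to -0.47).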

How the results depend on the processing

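The direction of all 40 called genes held under every alternative in which they were tested, while the count of calls did not. The 40 were selected on the same changes, which favours a direction that holds. Without the replicate block, 1 gene was called higher and 1 lower. With all 47 arrays in 1 fit, 34 and 28 genes were called, 32 of them among the 40. The count was 0 and 0 with a spread per genotype, with the mean of a gene's probe sets, with every probe set tested, with the macrophage covariate, with both covariates and with alike lymphomas counted once, and 1 and 0 with the fibroblast covariate. In these 7 fits 1510 to 5956 genes or probe sets had an unadjusted p under 0.05 (limma). A trended, robust fit called 6 and 6, quantile normalisation 10 and 15, genes with a mean level of at least 5 gave 49 and 30, and a threshold of 0.1 gave 173 and 116. Centring arrays on their medians gave 12 and 75 and moved the median difference of all genes from 0.053 to -0.127, beside 23 and 17 as deposited. For the gene lists, counts that an alternative moved by over 1.5 times stand beside the list, except the following. Without the replicate block AP-1 had 5 in place of 12, NF-kB 4 for 8, interferon 3 for 12, lysosome 8 for 16, secretory 14 for 22, macrophage 1 for 8, oxidative phosphorylation 6 for 12, cholesterol 2 for 6, DNA sensing 1 for 4 and precursor B cell 1 for 4. Myc targets had 6 for 10 with a spread per genotype, and above the level of 5 the Wnt list had 4 for 11 and the fibroblast list 16 for 27, with fewer members tested. The fibroblast markers had 14 with the macrophage covariate and 2 with their own or both, and the macrophage markers 0 with their own and 1 with both. Leaving out 1 lymphoma gave 0 to 65 genes called higher and 0 to 73 lower. The combined covariates and the list values without 1032 or 4936 were added after seeing the data.

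Among named genes that did not pass, a few differences turned sign. Bcl2 was 0.10 with the mean of its probe sets, Cdkn2a -0.013 without Suv39h1- 5783 (up to 0.954 without 7890), Cdkn1a -0.011 and Mcl1 -0.015 with the macrophage covariate, and with both covariates Cdkn1a was -0.12, Mcl1 -0.089, Ctsd -0.12, Fn1 -0.36 and Oasl2 -0.21. Precision is limited by 5 Suv39h1- lymphomas, and detection calls were not used here.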

Other observations

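The 3 Suv39h1ER cultures, which entered none of the tests above but the fit of all 47 arrays, allow the same genes to be read where Suv39h1 activity was added back. They were Suv39h1-deficient and carried Suv39h1 fused to an estrogen receptor domain that needs 4-hydroxytamoxifen (4OHT), and the value read was the level under ADR with 4OHT minus that under ADR alone. By their labels 1 culture shares its number with Suv39h1- lymphoma 4936 and 1 with WT lymphoma 5043, and whether these are the same lymphomas is not stated. The treatment label of the arrays with 4OHT gives no days of ADR, where that of ADR alone gives 5 days. Whether the arrays compared also differ in ADR time or dose was not tested. Of the 17 genes called lower above, 16 had a mean below 0 (94.1%), where 53.7% of all genes did, with a median of -0.53 beside -0.021 for all genes, and 14 were below 0 in all 3 cultures, as were 19.5% of all genes. Pold2 had -0.99 ± 0.42 (SD, n = 3), Plk1 -0.88 ± 0.78, Haus1 -0.75 ± 0.13 and Bub1b -0.77 ± 0.65. Efr3b was the exception, at 0.74 ± 0.68.

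The 23 genes called higher did not show this. A total of 13 had a mean above 0 (56.5%, where 46.3% of all genes did), with a median of 0.048, and 4 were above 0 in all 3 cultures, as were 14.7% of all genes. These 4 were Klf6 (0.95 ± 0.95, SD, n = 3), Atf3 (0.97 ± 0.43), Dhrs3 (0.89 ± 0.35) and Rela (0.55 ± 0.34). Lgals3 was lower with 4OHT in all 3 cultures, at -2.45 ± 0.20 (SD, n = 3), opposite to its response difference of 2.19. These values are a description with no test, and 4OHT given to cells without the construct was not measured here.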
